A study of Homo sapiens with 4 samples.

Results

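N6-methyladenosine (m6A) peaks that lay in exons, outside the untranslated regions, and were called in only 1 of 2 conditions were examined in A549 cells, a human lung adenocarcinoma line. The cells carried a control vector, called shNC, or shY2-2, an shRNA that targets YTHDF2, and each condition gave 1 input library and 1 m6A IP library. A peak was taken when its deposited annotation began with Exon and no exonic base of it was covered, on the same strand, by any peak of the other condition. Of the 58401 distinct peaks of both lists, 7849 met this rule. In the shNC list 4679 of 7888 exon peaks did, in 3532 genes, and in the shY2-2 list 3170 of 6721 did, in 2649 genes. Both conditions used the same cell line in RPMI medium with serum and differed in 1 shRNA, and with 1 library of each kind the differences below describe these libraries and could not be tested against replicates. In such bulk samples fewer cells of a type and less RNA per cell cannot be told apart. The members were chosen by the peak calls themselves, so their fold enrichment and false discovery rate (FDR) are given as a description.

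m6A is placed on nascent mRNA by the METTL3 and METTL14 methyltransferase complex, mostly at an adenosine that follows a purine and precedes a cytosine, and is bound by YTH domain readers. YTHDF2 is the cytoplasmic reader known for recruiting deadenylases and shortening the life of its targets. In most cells the mark is dense in long internal exons and around the stop codon, and sparse in short exons flanked by introns. In m6A-seq, fragments pulled down by the antibody are compared with the input, and a peak is an exonic stretch with more IP fragments than the input would give.

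The core of the consensus, GGAC, whose A is the methylated base, was found in members of both directions, and 8 windows of 29 nt around it in coding sequence (GRCh38, sense strand) show its setting. They come from members with a deposited FDR of at most 0.05 that were named for their fold enrichment, for their FDR or from the gene lists described further down. Capitals mark the GGAC at the centre of each window.
RECK: ttgtccgtcaagGGACactaatccaggtg
FTO: acaagatgaagtGGACattaagagcagag
WNT3: acccacggagagGGACctggtctactacg
SMARCA2: tcctcttgactgGGACcccgctgcagaat
NES: ctcccccaggtgGGACcccactggagagc
RAB11FIP5: cagggttcctctGGACttgggaccgaacc
HNRNPA1: tatggaagtggtGGACagggttatggaaa
CHD6: gaagacaaagggGGACaaccccaactccc
The capitals of the first 5 lay in peaks called only in shNC and those of the other 3 in peaks called only in shY2-2, and the HNRNPA1 window begins upstream of its peak. In RECK, which encodes an inhibitor of matrix metalloproteinases, the window was at chr9:36108006-36108034 on the plus strand, in exon 14 of 21. In FTO, an m6A demethylase, it was at chr16:53826301-53826329, plus strand, in exon 3 of 9. In WNT3, a secreted Wnt ligand, it was at chr17:46768556-46768584, minus strand, in exon 4 of 5. In SMARCA2, an ATPase of the SWI/SNF complex, it was at chr9:2086932-2086960, plus strand, in exon 18 of 34. In NES, an intermediate filament protein, it was at chr1:156670233-156670261, minus strand, in the last of 4 exons. Of the shY2-2-only windows, that of RAB11FIP5, an effector of Rab11 in vesicle recycling, was at chr2:73081038-73081066, minus strand, in exon 4 of 6. The window of HNRNPA1, a splicing regulator with many processed pseudogenes that could share its reads, was at chr12:54283126-54283154, plus strand, in exon 8 of 11. The window of CHD6, a chromatin remodeler, was at chr20:41404739-41404767, minus strand, in the last of 37 exons. The fold enrichments of these 8 members ranged from 1.58 in HNRNPA1 to 17.5 in NES.

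By deposited annotation, exon peaks were found in 1 list only more often than peaks in the untranslated regions. In the shNC list the share was 59.3% (95% Wilson interval 58.2 to 60.4) of exon peaks, against 39.0% (38.3 to 39.8) of 3′ UTR peaks and 38.6% (37.2 to 40.0) of 5′ UTR peaks. In the shY2-2 list it was 47.2% (46.0 to 48.4), against 29.6% (28.9 to 30.3) and 33.8% (32.4 to 35.2). The order depended on the annotation. Peaks taken by a midpoint in coding sequence of the canonical transcript were in 1 list only in 46.9% of cases in shNC and 28.99% in shY2-2. The shY2-2 value lay below both UTR shares of that list. The intervals cover the counting of peaks only, since peaks of 1 library are not replicates.

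**Figure D1:**
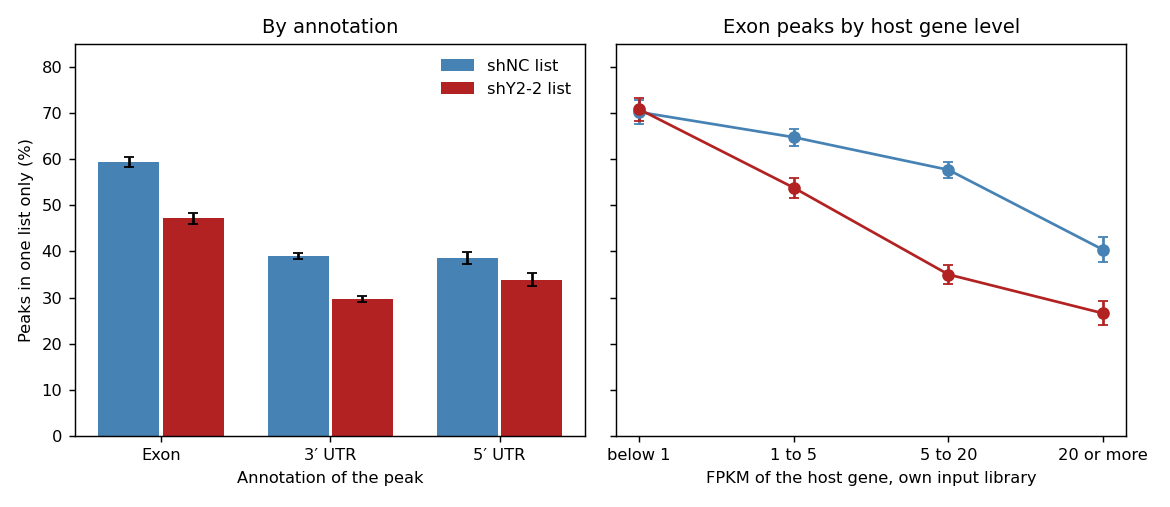
Left, share of the peaks of each list (y axis, %) that overlapped no peak of the other list, by deposited annotation (x axis). Right, the same share for exon peaks by the FPKM of the host gene in the input library of the same condition; whiskers are 95% Wilson intervals, and exon peaks stand above both kinds of UTR peaks in both lists, and their share goes from 70.2% to 40.4% in shNC and from 70.8% to 26.6% in shY2-2 between the lowest and the highest FPKM class.

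The share was lower where the level of the host gene was higher. Host genes with an FPKM (fragments of the input per length of exon and per mapped fragment) below 1 in the input library of the same condition had 70.2% of their exon peaks in shNC only and 70.8% in shY2-2 only. With an FPKM of 20 or more these shares were 40.4% and 26.6%. The median FPKM in the own input library was 4.42 over shNC-only members and 2.46 over shY2-2-only members, against 7.15 and 7.19 over the exon peaks that overlapped a peak of the other list, called shared here. Host genes below 1 in both inputs held 16.3% of shNC-only and 26.7% of shY2-2-only members, and 9.99% and 9.64% of shared exon peaks.

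The members were also weaker calls. An FDR of at most 0.05 was deposited for 27.8% of shNC-only members (1301 peaks) and 16.5% of shY2-2-only members (522 peaks), against 65.6% and 56.6% of shared exon peaks. Of the exon peaks with an FDR of at most 0.001, 18.5% were in shNC only and 7.77% in shY2-2 only, and of those with an FDR above 0.05, 75.4% and 63.2% were. The median exonic length of the members was 180 nt in shNC and 181 nt in shY2-2, and that of shared exon peaks was 270 and 238 nt. Exon peaks shorter than 150 nt were in 1 list only in 77.3% of cases in shNC and 57.8% in shY2-2, and those of 300 nt or more in 35.2% and 40.2%.

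At the edge of the rule, the members closest to a peak of the other list were separated from it by 0 nt in VPS4A and 3 nt in ZNF17 in the shNC direction, and by 3 nt in ZNF17 and 7 nt in THADA in the shY2-2 direction. Just outside it, peaks in AGRN and MTND2P28 overlapped the other list by 1 nt in both directions. ZNF17 thus held a member in each direction, side by side. In all, 238 shNC-only and 211 shY2-2-only members had a peak of the other list within 100 nt of the genome.

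Fold enrichment did not follow the FDR among the members. Its median was 2.00 over shNC-only members (quartiles 1.53 and 3.56) and equally 2.00 over shared exon peaks of that list, whereas it was 2.96 over shY2-2-only members (1.81 and 6.94) and 1.82 over the shared ones. Members with a fold enrichment of 4 or more had an FDR of at most 0.05 in 17.3% of 1054 cases in shNC and 12.3% of 1232 cases in shY2-2. Shared exon peaks of that fold enrichment had it in 58.4% and 60.2% of cases. The median host gene FPKM was 11.5 at a fold enrichment below 1.5 and 1.11 at 4 or more among shNC-only members, and 11.6 and 0.957 among shY2-2-only members. This FPKM comes from the input library that the fold enrichment is divided by, so the measures are not independent.

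**Figure D2:**
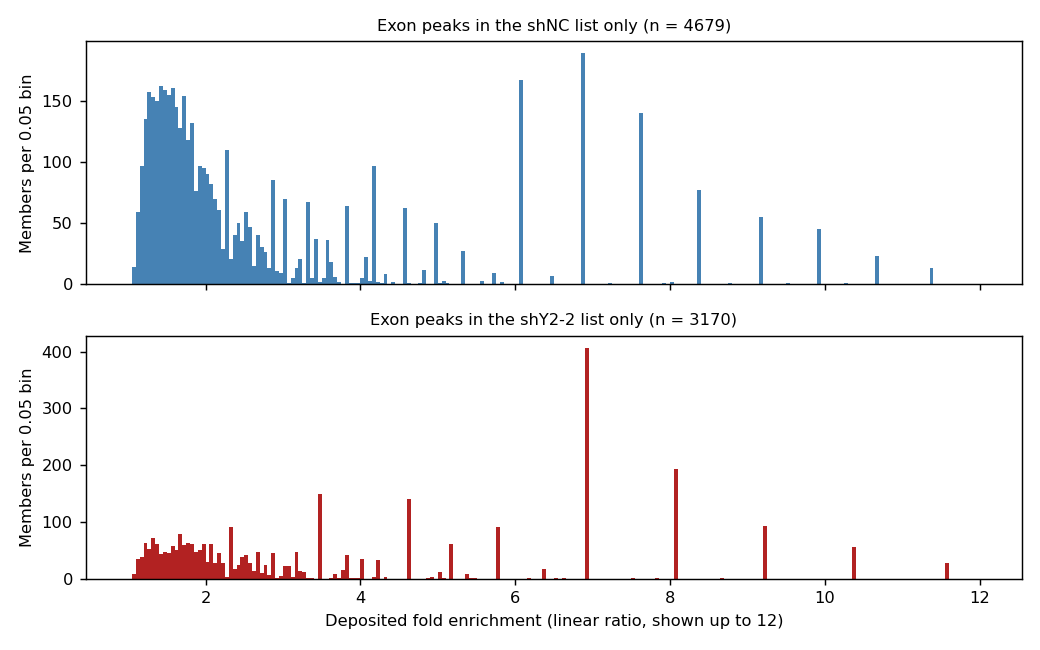
Number of members (y axis, per bin of 0.05) by deposited fold enrichment (x axis, linear ratio, shown up to 12, which leaves out 19 shNC-only and 32 shY2-2-only members). Above about 4 the values stand in separate, evenly spaced spikes, the tallest at 6.87 with 189 members in shNC and at 6.94 with 407 members in shY2-2.

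The high values were few and recurrent. A fold enrichment of exactly 6.94 was deposited for 407 shY2-2-only members, 12.8% of them, and 8.09 for 194. In the shNC direction 6.87 was deposited for 189 members, 4.04% of them, and 6.10 for 167. The spacing was even, with a step of 0.763 among shNC peaks and of 1.1565 among shY2-2 peaks. Between 4 and 12, 762 of 1035 shNC-only members and 926 of 1200 shY2-2-only members lay within 0.006 of a whole multiple of that step. Of the shared exon peaks in that range, 289 of 474 and 224 of 412 did. The 407 members at 6.94 had a median FDR of 0.979 and a median exonic length of 359 nt, and the 189 at 6.87 had a median FDR of 0.484 and a median length of 91.0 nt. The reads behind each peak were not analysed here.

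The directions also differed in the transcripts they fell in. Of the shY2-2-only members, 42.3% (40.6 to 44.0) were annotated to an exon of a protein-coding transcript, against 60.4% (59.0 to 61.8) of the shNC-only members and 62.8% and 63.5% of the shared exon peaks of the 2 lists. Transcripts of the retained-intron class, which keep an intron and carry no annotated coding sequence, took 15.9% of shY2-2-only and 11.2% of shNC-only members, and 8.08% and 7.67% of shared peaks of those lists. Transcripts of long noncoding RNAs (lncRNAs) took 23.8% and 14.5% of the members. By the gene named in the deposited table, 16.7% of shY2-2-only and 9.83% of shNC-only members were in lncRNA genes and 7.13% and 4.66% in pseudogenes. The exon named in the annotation belonged to a gene other than the host gene in 13.7% of shY2-2-only and 10.5% of shNC-only members. Where genes overlap, a peak may come from either of them.

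In coding host genes the label was checked against the canonical transcript of GENCODE release 44, called the reference transcript here. The midpoint was in a reference exon for 2699 of 3936 shNC-only and 1190 of 2329 shY2-2-only members. Of those midpoints, 99.0% in shNC and 98.5% in shY2-2 were in coding sequence. The rule leaves out peaks annotated to untranslated regions, so high shares were largely set in advance. However, 20.8% (19.6 to 22.1) of 3936 shNC-only members and 37.4% (35.5 to 39.4) of 2329 shY2-2-only members touched no reference exon at all, against 14.5% and 15.4% of shared exon peaks. Of these, 80.9% in shNC and 82.5% in shY2-2 lay within the span of the reference transcript, that is in its introns, and 48.2% and 50.1% were annotated to retained-intron transcripts. Coding sequence of the reference transcript was overlapped by 78.4% (77.1 to 79.7) of shNC-only and 61.8% (59.8 to 63.8) of shY2-2-only members.

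**Figure D3:**
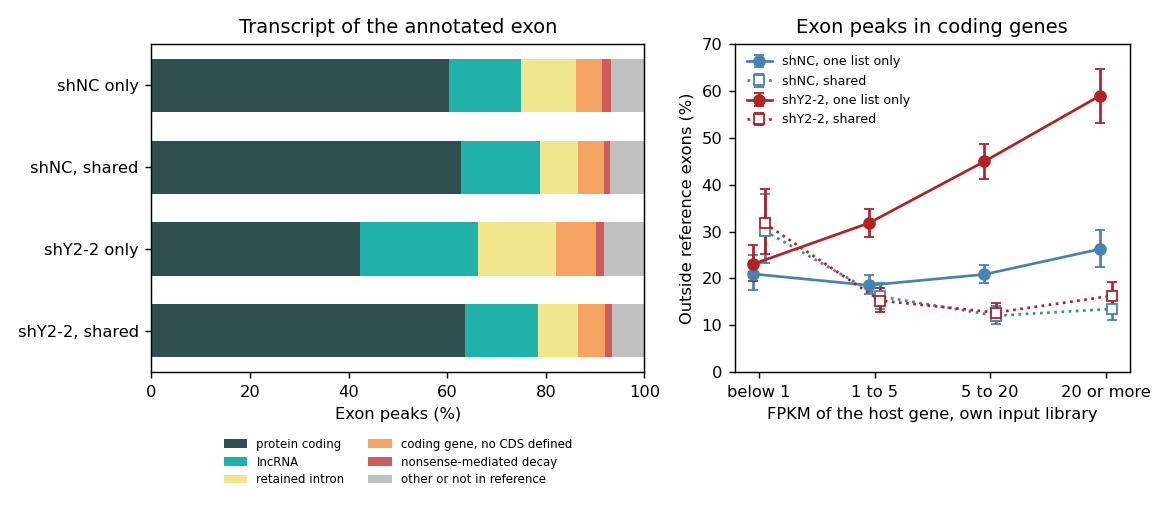
Left, class of the transcript whose exon the deposited annotation names, as a share of exon peaks (x axis, %), for members of each direction and for shared exon peaks of each list. Right, share of exon peaks in coding genes that touched no exon of the reference transcript (y axis, %) by the FPKM of the host gene in the own input library (x axis), with 95% Wilson intervals. The shY2-2-only line climbs from 23.1% to 59.0% while shared peaks stay between 12.1% and 16.3% at an FPKM of 5 or more. Below an FPKM of 1, shared peaks of the shNC list are at 30.1%, above shNC-only members at 21.0%.

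Among shY2-2-only members the share outside reference exons was larger where the host gene level was higher. It was 23.1% below an FPKM of 1, 31.8% from 1 to 5, 45.0% from 5 to 20 and 59.0% (161 of 273) at 20 or more. The same classes gave 21.0%, 18.6%, 20.9% and 26.3% among shNC-only members. Shared exon peaks of the shNC list gave 30.1% (44 of 146), 16.2%, 12.1% and 13.5%. Below an FPKM of 1 the shared peaks of that list were thus outside reference exons more often than shNC-only members. At 20 or more, shared exon peaks of the shY2-2 list gave 16.3%. When host genes had to reach an FPKM of 5 in each input, 49.2% (46.0 to 52.5) of 924 shY2-2-only members and 23.7% (21.8 to 25.7) of 1842 shNC-only members touched no reference exon, so the directions also differed among well expressed genes.

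Genes of ribosomal proteins, picked after their values were seen, were an example at high levels. Of 10 shY2-2-only members in such genes, 8 touched no reference exon and 7 were annotated to retained-intron transcripts. All 8 shNC-only members in them touched none, and 6 were annotated to retained-intron transcripts. Among shared exon peaks in these genes, 8 of 37 in shY2-2 and 8 of 36 in shNC touched none, so members of both directions were mostly outside reference exons there.

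Members with a midpoint in reference coding sequence lay in shorter exons than shared peaks. The median exon length at the midpoint was 222 nt over 2671 shNC-only members and 436 nt over 1804 shared peaks of that list, and 330 nt over 1172 shY2-2-only members and 608 nt over 2019 shared peaks. Exons of at least 400 nt held 40.6% (38.7 to 42.5) of shNC-only and 48.0% (45.2 to 50.9) of shY2-2-only members, against 50.9% and 56.5% of shared peaks. Among internal exons alone the shares were 25.4% and 31.8% for members and 35.3% and 38.1% for shared peaks. Exon length moved with the level of the gene. At an FPKM of 20 or more the medians were 157 nt for shNC-only members and 169 nt for shared peaks, and 174.5 nt for shY2-2-only members and 172 nt for shared peaks, so the difference was not seen in the most expressed genes of the shY2-2 list.

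Along the coding sequence the members were sparser near its start, and so were shared peaks of the shNC list. Positions from 0 to 0.25, scaled from 0 at the start codon to 1 at the stop codon, held 18.6% (17.2 to 20.1) of the midpoints in shNC and 20.6% (18.3 to 23.0) in shY2-2, and those from 0.25 to 0.5 held 28.5% (26.8 to 30.2) and 27.8% (25.3 to 30.5). For shared peaks of the shNC list these positions held 17.1% (15.4 to 18.9) and 27.4% (25.4 to 29.5). On this scale the median midpoint was 0.522 in shNC and 0.519 in shY2-2, and 0.544 and 0.556 for shared peaks. The median distance to the stop codon was 993 and 996 nt over members and 848 and 812 nt over shared peaks. A window of 100 nt around the stop codon was reached by 4.34% of shNC-only and 4.42% of shY2-2-only members in coding genes, about as often as the same window around the start codon, 4.55% and 4.89%. The rule leaves out peaks annotated to untranslated regions, which limits these shares at both codons. Shared exon peaks, which were longer, reached the stop codon window in 8.53% and 8.60% of cases.

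GGAC was present in 50.1% (48.7 to 51.5) of shNC-only and 52.1% (50.3 to 53.8) of shY2-2-only members, against 65.4% and 60.5% of shared exon peaks. Longer peaks have more room for a motif, and shared peaks were longer. Among peaks of 200 to 300 nt, GGAC was in 60.9% (58.2 to 63.5) and 61.7% (58.0 to 65.3) of members and in 65.1% (62.1 to 68.0) and 65.7% (62.6 to 68.7) of shared peaks. Per kilobase, the members held 4.28 and 3.79 GGAC, the shared peaks 4.80 and 4.51, and windows of 180 nt that tile the coding sequence of 10686 expressed genes 4.80. Such windows held GGAC in 55.7% of cases and windows of 240 nt in 65.5%. GGACT was in 19.1% and 22.1% of members and 30.2% and 26.8% of shared peaks. The degenerate consensus DRACH (any base but C, a purine, then AC and any base but G) was in 91.9% and 92.0% of members, at 20.1 and 18.8 per kilobase against 19.6 in the 180-nt coding windows. Every GGACT is also a match to GGAC and to DRACH, GGAC is one unless a G follows it, and all motifs were counted on the sense strand. For members with a midpoint in coding sequence the density of GGAC was 4.65 per kilobase in shNC and 5.11 in shY2-2, and for shared peaks 5.35 and 5.42. The shNC-only members were thus below the coding windows in GGAC density and the shY2-2-only members above them, and both were below shared peaks. The order depended on the motif. GGACT and DRACH were at 1.15 and 21.2 per kilobase in these shNC-only members and 1.18 and 20.3 in the shY2-2-only ones. The 180-nt coding windows held less of each, 1.06 and 19.6. Shared peaks of the shNC list held 1.28 and 20.4, so their DRACH density was below that of shNC-only members.

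Most host genes had other peaks in both conditions. For 77.8% of shNC-only and 71.0% of shY2-2-only members the host gene had some peak in the other list, most often in the 3′ UTR (59.4% and 51.2%). Counted by gene, 24.0% of the 3532 shNC host genes and 30.0% of the 2649 shY2-2 host genes had no peak of any kind in the other list. Where the distance could be taken along the reference transcript, the nearest peak of the other list was at a median of 597 nt from shNC-only members (2658 members) and 419 nt from shY2-2-only members (1275 members). It was within 100 nt for 13.5% and 17.6% of them. In 827 genes both directions had members, 23.4% of the shNC host genes and 31.2% of the shY2-2 host genes. Most host genes held 1 member, 2651 in shNC and 2219 in shY2-2.

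The shNC-only members of highest fold enrichment, among those with an FDR of at most 0.05 in genes that reached an FPKM of 1 in each input, were mostly outside the coding exons of the gene they were assigned to. The highest, 21.4, was assigned to CDR2, an onconeural antigen gene, on chromosome 16, where the annotated exon was that of an overlapping lncRNA. PIGCP1, a processed pseudogene, followed with 14.5, also in an lncRNA exon. Values of 13.7 were deposited in RECK, in CCDC57 and in GLI2, a transcription factor of Hedgehog signaling. Of these 3, only the RECK peak was in coding sequence, over 420 exonic nt, and the GLI2 peak was in an lncRNA exon of another gene. RECK was at an FPKM of 1.67 in shNC and 2.22 in shY2-2, and it had 3 peaks in the shY2-2 list, the nearest 1107 nt away along the transcript. Values of 12.2 in AP5Z1, EMC3 and BCAM and of 11.4 in GLG1 and FAM57A completed the 10, of which AP5Z1, BCAM and GLG1 were in retained-intron transcripts, as was CCDC57. The AP5Z1 midpoint lay in the 3′ UTR of the reference transcript, and the EMC3 peak was in an lncRNA exon of another gene. The 10 thus held 1 member in a coding exon of its gene.

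The shY2-2-only members chosen the same way were led by PLK1, the mitotic kinase that drives spindle assembly. Its peak, 150 nt at chr16:23687254-23687403, had a fold enrichment of 21.4 and an FDR of 1e-12, and PLK1 had no peak of any kind in the shNC list. The FPKM of PLK1 was 29.3 in shNC and 40.4 in shY2-2. The peak lay in exon 1 of 2 of a retained-intron transcript and outside the reference exons. RAB11FIP5 followed with 15.4 (FDR 4.27e-09) over 569 nt of a coding exon of 2013 nt, at an FPKM of 4.17 and 6.20. It had 6 peaks in the shNC list, the nearest 180 nt away. ANXA4, an annexin, TGFBI, a secreted matrix protein, and LZTR1 had values of 15.0, the first 2 in retained-intron transcripts, and TGFBI was at an FPKM of 93.1 and 58.3. ZNF271P, with 13.9, and PI4KA, SNHG17, DDX56 and TEX264, each with 12.7, completed the 10. Of these, RAB11FIP5 and PI4KA, a lipid kinase, had the midpoint in coding sequence of the reference transcript.

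The members of lowest FDR were of another kind, mostly with low fold enrichments in very abundant RNAs. In shNC they were in MT-RNR2, the mitochondrial large ribosomal RNA, with a fold enrichment of 1.31 and an FDR of 6.31e-53, MIR4435-2HG, a lncRNA gene, with 4.23 in an exon annotated to a pseudogene, RPL19 with 2.40, MT-ATP6, a subunit of the mitochondrial ATP synthase, with 1.19, and KRT8, an epithelial keratin, with 1.25. The FPKM of MT-RNR2 was 1899 in shNC and 1996 in shY2-2, and that of MIR4435-2HG 2.84 and 2.31. In shY2-2 they were in RPL35, whose FDR was listed at 0 with a fold enrichment of 3.37, RPL13A with 1.48, RN7SL2 and RN7SL1, the RNAs of the signal recognition particle, with 1.84 and 1.42, and HNRNPA1 with 1.58. The 2 RN7SL genes had no peak in the shNC list and were listed at an FPKM of 622 and 593 in shNC and 236 and 238 in shY2-2. They are near-identical copies, so their reads may be split between them. Along the transcript, the RPL35 member sat 2 nt and the KRT8 and MIR4435-2HG members 1 nt from a peak of the other list. Distances along the transcript are differences of positions, so 1 nt stands for directly adjacent ends, unlike the genomic gaps above.

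Some genes carried several members. FMNL1, a formin that nucleates actin filaments, had 8 in shNC, which were all its peaks in that list, with fold enrichments from 1.46 to 3.31 and a lowest FDR of 9.55e-06. FMNL1 had 1 peak in the shY2-2 list, and its FPKM was 8.13 in shNC and 9.22 in shY2-2. C21orf2 had 6 members among 10 peaks and no peak in the shY2-2 list, at an FPKM of 1.15 and 1.91. GEMIN5, which binds small nuclear RNAs for their assembly, and EIF2AK3, the unfolded protein sensor PERK, had 5 each, as did the pseudogene TXLNGY. The FPKM of EIF2AK3 was 5.09 in shNC and 2.99 in shY2-2. In the shY2-2 direction MALAT1, a nuclear lncRNA, led with 8 members of 3214 nt in all, with fold enrichments from 1.31 to 2.74 and a lowest FDR of 2.88e-05. MALAT1 had 4 peaks in the shNC list, and its FPKM was 22.2 in shNC and 12.4 in shY2-2. The lncRNA AL645608.1 had 6, BAIAP2-AS1, an antisense RNA, 5, and USP32P2 and C1orf61, with FPKM values below 1 in both inputs, 4 each. USP32P2 is a pseudogene, and near-identical copies may share reads with it and with TXLNGY. Protein-coding genes were 4 of the 5 in shNC, and the 5 in shY2-2 were lncRNA genes and a pseudogene.

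The levels of the host genes were compared between the inputs as log2((FPKM shY2-2 + 1)/(FPKM shNC + 1)), a scale that understates changes of low genes. YTHDF2 itself was at an FPKM of 3.56 in shNC and 1.02 in shY2-2, and held no member. Keratins KRT8 (523 and 322) and KRT18 (388 and 281) and the enzymes AKR1B10 (1801 and 2044) and ALDH1A1 (2157 and 1238) were high, EPCAM (2.02 and 1.20) and CDH1 (9.99 and 5.28) lower, SFTPC, PTPRC and PECAM1 below 0.2, COL1A1 at 0.834 and 1.64, and SFTPB and NKX2-1 matched no row. Host genes below an FPKM of 1 in both inputs were left out. Over the 2859 host genes of shNC-only members kept, the median log2 ratio was -0.04. It was -0.02 over the 1898 host genes of shY2-2-only members, 0.03 and 0.02 over those of shared exon peaks, and 0.00 over all 12268 genes kept. A ratio above 1 was found in 11 shNC host genes (0.385%) and 8 shY2-2 host genes (0.421%), against 0.986% of all genes kept. A ratio below -1 was found in 60 (2.10%) and 28 (1.48%), against 2.14% of all genes kept. The shares above 1 were below the background in both directions. The share below -1 was close to the background in shNC (1.63 to 2.69) and lower in shY2-2 (1.02 to 2.12). Host genes are not replicates and are part of the background, so these counting intervals are not a test. The medians lay close to that of all genes. For host genes with lower levels in shY2-2 the order against the background depended on the setting. In shNC the share was 9.48% against 8.92% of all genes at a 1.5-fold threshold and 2.90% against 2.69% where an FPKM of 5 had to be reached in 1 input or more. With no filter on FPKM it was 1.73% in shNC and 1.08% in shY2-2, against 0.926% of all genes.

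**Figure D4:**
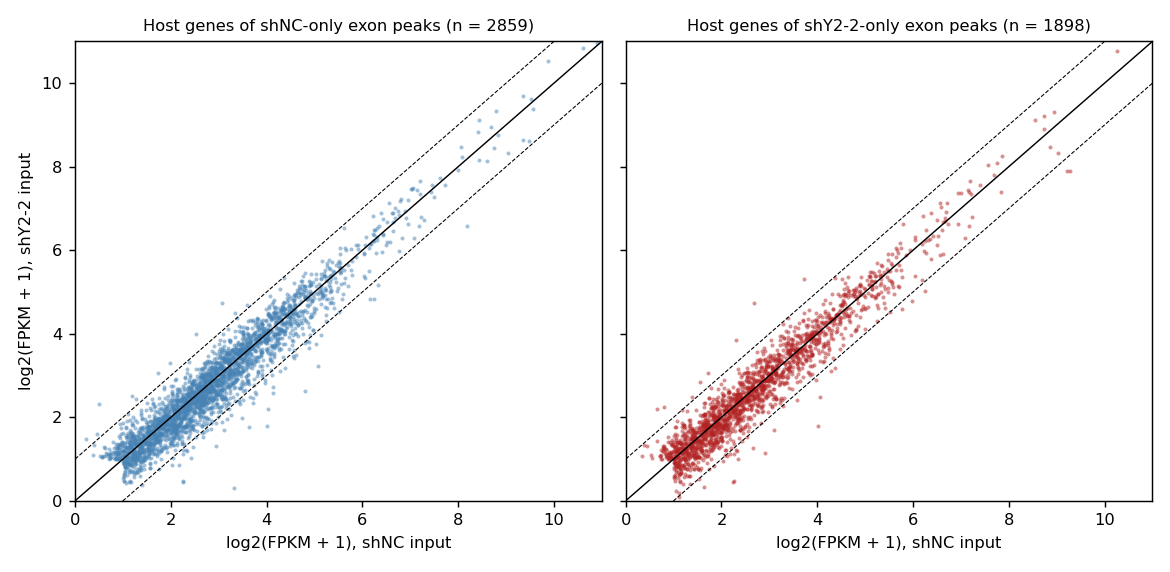
Input level of each host gene, log2(FPKM + 1), in shNC (x axis) and shY2-2 (y axis), for host genes of shNC-only members (left, 2859 genes) and shY2-2-only members (right, 1898 genes). The solid line marks equal levels and the dashed lines a log2 ratio of 1 and -1; 11 points lie above and 60 below the dashed lines on the left, and 8 and 28 on the right.

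The extremes were single genes. Among shNC host genes ZNF71, a zinc finger gene, was at an FPKM of 0.410 in shNC and 3.96 in shY2-2 (log2 ratio 1.81), SLC9A3R1, a scaffold of apical membranes, at 7.34 and 25.7 (1.68) and SPIN1, a reader of histone methylation, at 4.72 and 15.0 (1.48). At the other end C3, the central complement component, was at 15.1 and 2.45 (-2.22), SUSD2 at 26.8 and 5.24 (-2.16) and ROCK2, a kinase of actomyosin contraction, at 11.5 and 2.41 (-1.87). Among shY2-2 host genes MPZL1 was at 5.38 and 25.5 (2.06), CCNE1, the cyclin of S phase entry, at 12.1 and 39.0 (1.61) and DANCR, a lncRNA, at 3.93 and 13.5 (1.55). The MPZL1 and CCNE1 peaks lay in retained-intron transcripts. C3, which held members in both directions, and ZHX1 (3.79 and 0.388, -1.79) were among the lowest ratios. In these genes a peak call in 1 condition thus stood beside input levels that were higher or lower in that condition.

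Of the genes with any exon peak, 3532 of 5232 (67.5%) held an shNC-only member and 2649 of 4816 (55.0%) an shY2-2-only member, and 6 gene lists were read against these shares. The m6A writers, erasers and readers had 21 genes. Of 10 with an exon peak in shNC, 4 held a member there, and of 11 in shY2-2, 5 did, with no gene in both directions. FTO had the lowest FDR of the 8 members named here, with a fold enrichment of 2.83 and an FDR of 1.07e-07 in shNC, in an exon of 628 nt, at an FPKM of 0.948 in shNC and 2.37 in shY2-2. ALKBH5, the other m6A demethylase, had a shNC-only peak of 3.82 in a retained-intron transcript at an FPKM of 31.8 and 42.2. WTAP, the adaptor of the methyltransferase complex, and YTHDC2, a reader with helicase activity, had values of 1.82 and 1.48 in shNC only. The shY2-2-only peaks included those of METTL3 (6.94, FDR 0.979, in a retained-intron transcript), METTL16, VIRMA and ZC3H13, the last 3 with fold enrichments of 3.85, 1.57 and 1.35. None of these 4 had an FDR of at most 0.05. The midpoints of the WTAP and METTL16 peaks were outside reference exons.

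**Figure D5:**
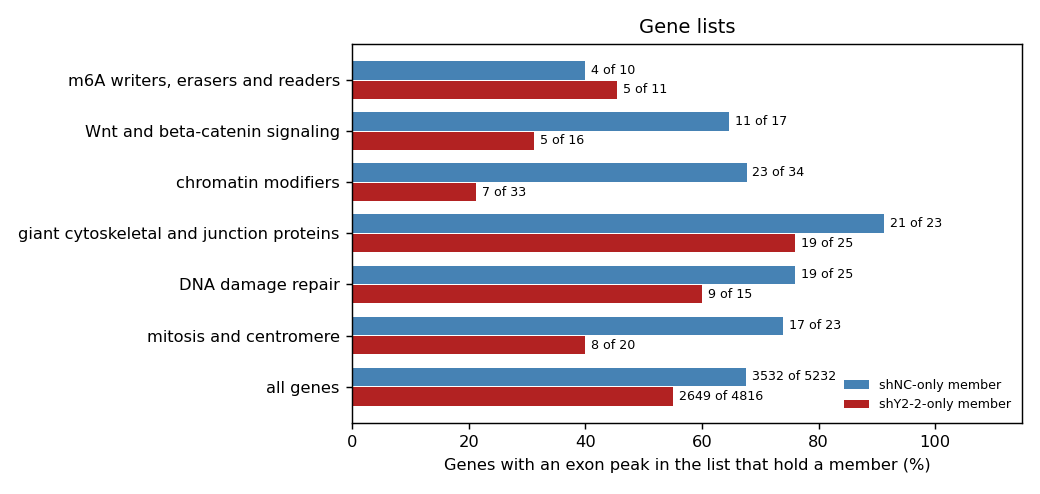
Share of the genes with an exon peak in a list that held a member of that direction (x axis, %), for 6 gene lists and all genes, with the counts beside the bars. Giant cytoskeletal and junction genes stand highest in both directions (21 of 23 and 19 of 25), and chromatin modifiers are at 23 of 34 in shNC and 7 of 33 in shY2-2.

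Of the Wnt and β-catenin genes, the pathway the study followed, 11 of 17 (64.7%) with an exon peak in shNC held a member and 5 of 16 (31.3%) in shY2-2. The shNC-only peaks included CSNK1A1, a kinase of the β-catenin destruction complex, with 9.92 (FDR 0.0468), NKD1, a feedback inhibitor, with 7.63 (FDR 0.157), TNKS, a tankyrase that marks axin for degradation, with 6.87 (FDR 0.484) and WNT3 with 2.32 (FDR 0.00234). Those in shY2-2 included APC2 with 16.2 (FDR 0.00363), at an FPKM of 0.204 and 0.251. The APC2 peak was in a retained-intron transcript, with its midpoint outside the reference exons. Also included were the receptors FZD8 with 5.78 (FDR 0.308) and FZD1 with 2.60 (FDR 0.138), each in a gene of 1 exon. CSNK1A1 held a member in each direction, both assigned to a retained intron of another gene. AXIN1 held none.

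Chromatin modifiers had members in 23 of 34 genes (67.6%) in shNC and 7 of 33 (21.2%) in shY2-2. In shNC they included SMARCA4 with 3.31 (FDR 0.286), SMARCA2 with 2.60 (FDR 0.00234) and CHD7 with 2.56 (FDR 0.00138). In shY2-2 they included SMARCA4 with 9.25, TET1, which oxidizes 5-methylcytosine, with 6.94 and CHD6 with 1.97, and of these 3 only CHD6 had an FDR of at most 0.05 (2.45e-05). The SMARCA4 peak of shY2-2 had its midpoint outside the reference exons. The share in shY2-2 was the lowest of the 6 lists.

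Genes of giant cytoskeletal and junction proteins, which have long coding sequences, held members in 21 of 23 cases (91.3%) in shNC and 19 of 25 (76.0%) in shY2-2, and 13 genes had both. NES had a fold enrichment of 17.5 (FDR 0.00055) in its last exon, of 4443 nt, in shNC only and 6.94 (FDR 0.979) in its first exon, of 926 nt, in shY2-2 only, at an FPKM of 0.606 and 0.841. FAT4, an atypical cadherin, likewise had 8.39 (FDR 0.112) in exon 10 of 18 in shNC only and 4.63 (FDR 0.834) in exon 7 in shY2-2 only. The NES member of shNC lay 30 nt from a peak of the other list. LAMA5, in an lncRNA exon of another gene, and DST, in a retained-intron transcript, had 9.92 and 7.63 in shNC (FDR 0.0501 and 0.164). MACF1, a linker of actin and microtubules, and CELSR2 had 9.25 and 5.20 in shY2-2 (FDR 0.122 and 0.199). The median log2 ratio of the host genes of this list was -0.30, and that of all 33 of its genes kept was -0.41.

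DNA damage repair genes held members in 19 of 25 cases (76.0%) in shNC and 9 of 15 (60.0%) in shY2-2. Among others, ATM, a kinase activated by double-strand breaks, had 6.87 (FDR 0.272) in a retained-intron transcript and WRN, a helicase, 4.58 (FDR 0.196) in shNC. TOPBP1 and LIG3, a DNA ligase, had 6.94 and 5.78 in shY2-2 (FDR 0.979 and 0.834). The midpoints of all these repair gene peaks were outside reference exons, and the LIG3 peak was also annotated to a retained-intron transcript. Mitosis and centromere genes held members in 17 of 23 cases (73.9%) and 8 of 20 (40.0%). NCAPD2 and SMC4, subunits of condensin, had 7.63 (FDR 0.00447) and 5.34 (FDR 0.0977) in shNC, and PCNT and ECT2 2.90 (FDR 0.171) each. None of these shNC-only peaks had its midpoint in a reference exon, and those of SMC4 and PCNT were annotated to retained-intron transcripts. Beside PLK1, NUMA1 and CENPE, a kinesin of the kinetochore, had 6.94 in shY2-2 (FDR 0.257 and 0.979) and CEP350 2.51 (FDR 0.388). The NUMA1 peak was in an lncRNA exon of another gene. The median log2 ratio of host genes was -0.12 in the repair list and -0.19 in the mitosis list. A ratio below -1 was found in 0 of 22 repair, 1 of 21 mitosis and 2 of 25 giant-protein host genes. It was found in 78 of the 4059 host genes of either direction and in 2.14% of all genes kept. No host gene of these lists was above 1, against 18 of the 4059 and 0.986% of all genes kept. Counts this small cannot be set apart from those shares. In all 6 lists but that of the m6A genes a larger share of genes held a member in shNC than in shY2-2, as among all genes.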

How the data were processed

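Peaks and FPKM values were those deposited for A549 cells with shNC or shY2-2, 1 input and 1 IP library each. The authors trimmed reads with fastp, mapped them to GRCh38 with HISAT2 and called peaks with exomePeak per condition, IP against input. ChIPseeker annotated the peaks. The deposited FPKM values per gene were calculated by the authors with StringTie from the inputs. For each peak the authors deposited a p-value, which was at most 0.049, log10 scores of the p-value and of the FDR, and the enrichment as a linear ratio (IP to input). Versions, the annotation release, the calling limit and the use of strand in peak calling are not given in the sources used here. The files hold no read counts, so the depth behind a peak or an FPKM value is unknown.

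Distinct peaks (by chromosome, start and end) counted as overlapping where their exonic blocks had 1 bp or more in common and the strand was the same. Locations came from canonical GENCODE release 44 transcripts, and the host gene was found there for 99.6% of shNC-only and 99.2% of shY2-2-only members. Motifs were counted in the spliced sequence of GRCh38. Medians and 95% Wilson intervals are descriptions, and no test was run. The overlap, location, motif and ratio steps were checked on simulated data. 

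The members, gene lists and settings were chosen with earlier results of these data known. All 6 lists matched by symbol. Named were, per direction, the 10 members of highest fold enrichment and the 5 of lowest FDR, 1 per gene, with an FDR of at most 0.05, an FPKM of at least 1 in both inputs and a standard symbol, the 5 genes with most members, the 3 host genes of highest and of lowest log2 ratio, and up to 4 genes per list by fold enrichment. The windows from list genes and the ribosomal protein genes were added after the values were seen. Alternatives were stricter peak filters, other overlap and location rules, other motifs and lengths, and other pseudocounts, FPKM filters and fold thresholds. The software was pysam 0.24.0, pandas 2.3.3, NumPy 2.4.6, SciPy 1.17.1 and matplotlib 3.10.9 under Python 3.11.15. Some genes that these rules would name are not reported here.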

Additional observations from a re-analysis of the deposited data

How the results depend on the processing

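Of 96 recomputed values, 38 stayed within their counting interval or within 1.5 times the count. The rest include values of a different quantity, for which that limit says nothing about stability. These are GGACT or DRACH shares set against the GGAC interval, and long-exon shares set against a median length. In the order shNC then shY2-2, limiting both lists to an FDR of at most 0.05 left 1862 and 832 members, 54.7% and 32.8% of exon peaks. A fold enrichment of at least 2 in both left 2738 members in shNC, and shares of 69.1% and 65.8%. Limiting the members alone to that FDR left 1301 and 522 (38.2% and 20.6%), with a median fold enrichment of 1.89 and 2.38, coding overlap in 87.9% and 71.0%, GGAC in 61.8% and 60.3%, host genes with no peak in the other list in 17.7% and 24.2%, and a median log2 ratio of -0.073 and 0.035. Extending the other list by 100 bp gave shares of 56.3% and 44.0%, and 31.8% of shY2-2 host genes with no peak in the other list. Asking for 50% of the length to be covered gave 69.4% and 55.8%, and taking peaks by a midpoint in coding sequence 46.9% and 28.99%. Where host genes reached an FPKM of 5 in each input, a setting chosen after seeing the data, fold enrichment was 1.58 and 1.85, exon length 175 and 185 nt and coding overlap 75.6% and 50.1%, and GGAC was in 43.9% in shY2-2. By midpoint, coding sequence held 67.9% and 50.3%. Exons of at least 400 nt held 40.6% and 48.0%. GGACT gave 19.1% and 22.1%, DRACH 91.9% and 92.0%, and members of 200 to 300 nt 60.9% and 61.7%. Host genes above and below the threshold numbered 42 and 120 in shNC and 26 and 72 in shY2-2 with a pseudocount of 0.1 (2.57% and 4.91% of all genes), and 107 and 271, and 76 and 157, at 1.5-fold (5.38% and 8.92% of all genes). Where 1 input or more reached an FPKM of 5 (1.22% and 2.69% of all genes) there were 6 above and 48 below in shNC, 5 above and 15 below in shY2-2, and medians of -0.018 and 0.015. The median log2 ratio of shY2-2 host genes changed sign under the FDR limit and the FPKM filter. The cause was not tested. No paired analysis was possible because each condition has 1 library of each kind. The unknown depth limits all peak calls, so the absence of a call in the other list does not show the absence of methylation there.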
